A study of Homo sapiens with 12 samples.

Results

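The comparison examined here was the interaction of cell line and treatment, the log2 response of A549 to RG7112 minus the log2 response of H1792. It used all 12 samples of the series, and of the 11666 genes tested (20595 in the deposited table) attention was given to the genes whose responses had opposite directions. A549 and H1792 are established human lung adenocarcinoma lines, both described as carrying MDM2 amplification. H1792 was taken to carry mutant p53, and A549 the wild type. Each line was grown for 48 h in DMSO, the vehicle, or in RG7112 at 1 μM, with 3 replicates in each of the 4 groups. The column names of the deposited table give the dose as 0.1 μM, whereas labels and methods give 1 μM. Each group stands for 1 line, so p53 status and every other difference between A549 and H1792 cannot be told apart. The sources do not state that replicates were separate cultures, and p-values measure the spread between these samples only.

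MDM2 binds p53 and marks it for degradation, and RG7112, a nutlin-type compound, occupies the p53 pocket of MDM2. Stabilized p53 induces CDKN1A, whose product p21 blocks the cyclin-dependent kinases. Unphosphorylated RB family proteins, alone or in the DREAM complex, then repress cell cycle genes through E2F sites and through CHR elements, which often lie close to CCAAT boxes. H1792 carries a p53 that is not expected to activate these targets.

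The response of the p53 pathway itself checked the treatment labels of A549. It could not check those of H1792, where MDM2 did not separate the treatments. MDM2 had CPM (counts scaled to library size and TMM factor) of 3.12, 9.56 and 12.95 in the 3 DMSO samples of A549 and 72.8, 58.6 and 76.1 with RG7112. In H1792 the values were 6.34, 12.001 and 15.3 with DMSO and 8.52, 11.4 and 10.7 with RG7112. The groups did not overlap in A549 (log2 fold change 3.0 ± 0.43, SE, edgeR adjusted p = 9.67e-04) and did in H1792 (-0.12 ± 0.43, edgeR adjusted p = 0.878). CDKN1A rose in A549 by a log2 fold change of 3.58 ± 0.69, with 1 sample (replicate 3 of RG7112, 942 CPM) far above the other two. The difference of CDKN1A between the lines passed the edgeR test (adjusted p = 0.04502) and, of the 12 fits that left out 1 library, only in those without replicate 1 or 2 of A549 with RG7112 or replicate 2 of H1792 with DMSO, and it was not called under the GC correction (edgeR adjusted p = 0.07698). GDF15, a secreted p53 target, had log2 fold changes of 0.98 in A549 and 0.07 in H1792, and their difference also missed the threshold after the GC correction (edgeR adjusted p = 0.0631). Keratin genes were detected in both lines, and EPCAM was under 4 CPM in the DMSO samples of both. With DMSO, CDH1, CLDN4 and CLDN7 reached at most 1.06, 3.88 and 1.74 CPM in H1792 and 18.4, 3.41 and 1.49 in A549. ELF3 was at 2.08 to 3.17 CPM in H1792 and at 754 to 843 in A549. COL1A1, a fibroblast collagen, reached 252 to 295 CPM in H1792 with DMSO against at most 7.68 in A549. The other fibroblast markers COL3A1, DCN and LUM reached at most 1.62, 1.31 and 0 CPM in H1792 with DMSO.

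Genes were called with edgeR's quasi-likelihood test at a Benjamini-Hochberg adjusted p under 0.05. RG7112 raised 6.05% of the tested genes in A549 and lowered 7.29%, and it raised 11.2% in H1792 and lowered 12.5%. The counts of the lists below are to be read beside these shares. The response was higher in A549 for 1210 genes (10.4%) and lower in A549 for 1329 genes (11.4%). A gene counted as opposite when both responses and their difference passed the test and the signs differed. This held for 97 genes down in A549 and up in H1792 (0.831%) and for 132 genes up in A549 and down in H1792 (1.13%). CPM was lower in A549 and higher in H1792 without overlap for 438 genes (3.75%), and the reverse held for 481 (4.12%). Of the genes with opposite calls, 94 of 97 and 130 of 132 were among these, which largely follows from calling them in the same samples. For the 12 genes of each direction named below for the largest difference, non-overlap was a condition of naming. It is no separate support for a call. A log2 fold change over 1 in size in both lines was found for 40 and 28 genes.

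The opposite calls depended on the smaller of the responses, mostly that of H1792. In the 12 fits that each left out 1 library, the interaction stayed called for 97 of 97 and 131 of 132 genes, and none of the signs changed. The full opposite call held in all 12 fits for only 13 of 97 and 19 of 132 genes. The first count fell to 23 without replicate 3 and 25 without replicate 2 of H1792 with RG7112, and to 33 without replicate 2 or replicate 3 of H1792 with DMSO. It was 59 and 56 without replicates 1 and 2 of A549 with DMSO. The reverse count fell to 38 and 36 without those RG7112 samples of H1792, to 81, 42 and 71 without its DMSO replicates 1, 2 and 3, and to 65 and 78 without DMSO replicates 1 and 2 of A549. Library totals ranged from 2011916 to 6218825 counts, and 3 counts stood for 0.465 to 1.43 CPM, which covers counting error only.

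Scaling also bore on the split between directions. TMM factors were 0.838 to 0.902 in H1792 with DMSO and 1.05 to 1.13 with RG7112. With library size alone, the median response of all genes was 0.25 in H1792 and -0.08 in A549, and the counts became 211 and 46, of which 87 and 39 were the same genes. Among the genes named below, the opposite calls of IARS1, RPA2, SF3A3 and TPM3 and, in the reverse direction, of AKR1B1, ALDOC, BBC3, C1QTNF1, COL6A2, COL7A1, CTSD, GAA, KRT19, LAMB2, MAN2B1, MRPL49, MT-ATP6, MT-CO2, MT-CO3, MT-ND6, NUPR1, PLXNB3, SDC4, SMPD1, STAT2, TAP1, TP53I3 and WFS1 were lost on that scale. Responses below are relative to the TMM scale. In bulk RNA, fewer cells of a type and less RNA per cell cannot be told apart.

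**Figure D1:**
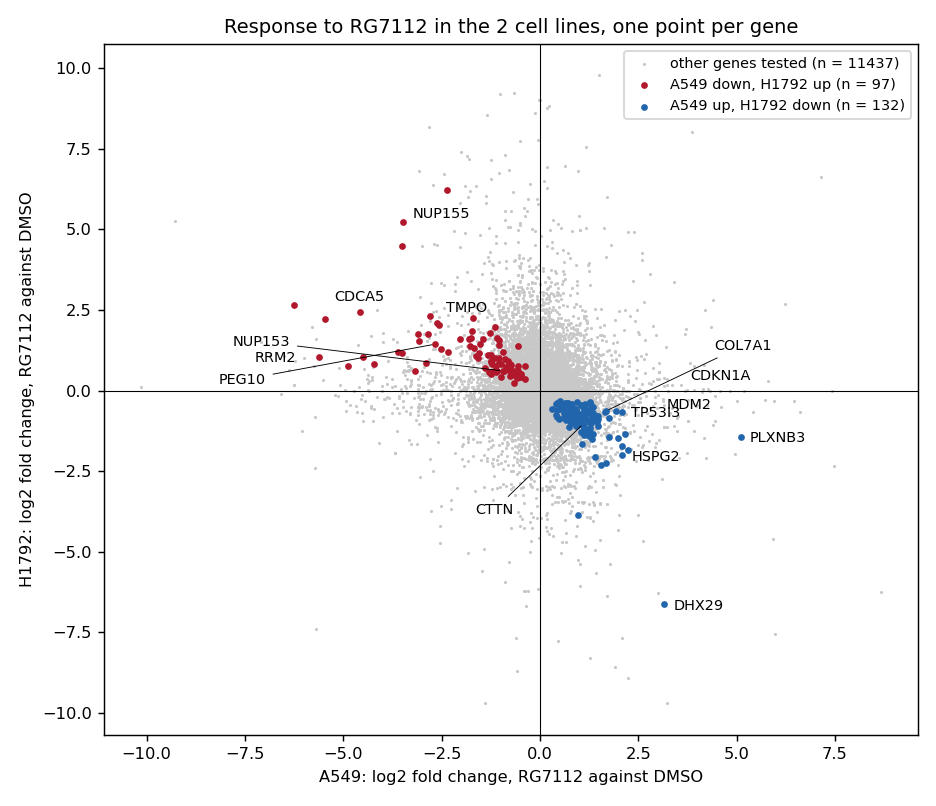
Log2 fold change of RG7112 against DMSO in A549 (horizontal) and H1792 (vertical), one point for each of the 11666 genes tested. The 97 genes called down in A549 and up in H1792 reach -6.25 in A549, and the 132 genes called in the reverse directions lie mostly within 2.5 of the origin.

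Promoter sequences of 6 of these genes are shown, with any match to the letters of CHR, CCAAT and E2F motifs marked. No rule was set for choosing these 6, so they do not stand for the shares of motifs in each direction, given below. Regulation of these genes through such letters was not tested. The windows run from 250 bases before to 50 bases after a start annotated by RefSeq (GRCh38.p14). Capitals mark the letters searched for, on either strand: the CHR core TTTGAA, the CCAAT box by its name's letters, and the E2F sites TTTGGCGC, TTTCCCGC, TTTGCCGC and TTTCGCGC, none of which contains another. The first 5 genes fell in A549 and rose in H1792, and COL7A1 did the reverse. RRM2 lies at chr2:10122489-10122788, plus strand (the first of its 2 listed starts), NUP153 at chr6:17706876-17707175, minus strand, NCAPD2 at chr12:6493852-6494151, plus strand, DEPDC1B at chr5:60700117-60700416, minus strand, CDCA5 at chr11:65083991-65084290, minus strand and COL7A1 at chr3:48595280-48595579, minus strand.
RRM2: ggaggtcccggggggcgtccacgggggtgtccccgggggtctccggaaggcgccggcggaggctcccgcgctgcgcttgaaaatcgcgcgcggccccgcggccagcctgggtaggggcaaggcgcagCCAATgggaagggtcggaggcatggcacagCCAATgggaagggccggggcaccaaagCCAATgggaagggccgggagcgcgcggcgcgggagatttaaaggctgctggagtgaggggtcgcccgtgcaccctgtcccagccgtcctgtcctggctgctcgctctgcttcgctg
NUP153: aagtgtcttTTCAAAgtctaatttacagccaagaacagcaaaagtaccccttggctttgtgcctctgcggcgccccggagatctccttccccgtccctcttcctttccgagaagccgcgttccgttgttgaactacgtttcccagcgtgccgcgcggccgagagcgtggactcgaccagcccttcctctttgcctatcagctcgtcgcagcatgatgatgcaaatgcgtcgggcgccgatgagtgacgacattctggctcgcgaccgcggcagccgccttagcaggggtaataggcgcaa
NCAPD2: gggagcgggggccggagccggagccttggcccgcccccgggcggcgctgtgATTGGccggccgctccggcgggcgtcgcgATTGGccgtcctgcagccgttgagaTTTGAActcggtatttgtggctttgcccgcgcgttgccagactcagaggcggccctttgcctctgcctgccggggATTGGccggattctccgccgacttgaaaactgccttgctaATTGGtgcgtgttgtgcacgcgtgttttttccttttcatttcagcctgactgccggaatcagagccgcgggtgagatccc
DEPDC1B: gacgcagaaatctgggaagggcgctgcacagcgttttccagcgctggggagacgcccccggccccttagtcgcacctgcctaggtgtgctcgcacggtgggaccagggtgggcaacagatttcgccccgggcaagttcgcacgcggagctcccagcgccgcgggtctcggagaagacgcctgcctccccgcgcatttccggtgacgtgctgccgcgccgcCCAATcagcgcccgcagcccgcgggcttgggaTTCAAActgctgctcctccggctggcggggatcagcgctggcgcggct
CDCA5: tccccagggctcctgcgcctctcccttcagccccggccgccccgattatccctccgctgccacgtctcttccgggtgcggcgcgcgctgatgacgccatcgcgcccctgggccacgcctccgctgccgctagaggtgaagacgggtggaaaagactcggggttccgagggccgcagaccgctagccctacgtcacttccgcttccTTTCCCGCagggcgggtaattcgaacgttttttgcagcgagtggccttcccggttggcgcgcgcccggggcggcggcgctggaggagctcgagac
COL7A1: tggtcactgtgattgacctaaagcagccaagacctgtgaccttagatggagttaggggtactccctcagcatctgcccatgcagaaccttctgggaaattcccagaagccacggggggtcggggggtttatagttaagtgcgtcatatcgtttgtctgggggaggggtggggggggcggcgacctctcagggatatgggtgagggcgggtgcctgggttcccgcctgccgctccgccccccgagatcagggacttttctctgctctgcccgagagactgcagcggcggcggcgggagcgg

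The RRM2 window held 3 CCAAT boxes and none of the other motifs. NCAPD2 held 1 CHR core and 4 CCAAT boxes, and DEPDC1B held 1 of each. NUP153 held a CHR core 241 bases before the start, and CDCA5 an E2F site 45 bases before it. None of these letters was present in the COL7A1 window. A window was found for 74 of the 97 genes down in A549 and up in H1792, and 16 (21.6%) held a CHR core, against 786 of 8661 windows of tested genes (9.08%). In the reverse direction it was 2 of 99 (2.02%). CCAAT stood in 41.9% and 37.4% of these windows and in 36% of all, and an E2F site in 9.46%, 5.05% and 5.38%. In the list of mitosis genes, most of which fell in A549 without a call in H1792, a CHR core was present in 36 of 54 windows (66.7%). A match is a description of the letters and not of binding.

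RRM2, PEG10 and NUP153 represent the genes that fell in A549 and rose in H1792. RRM2 (chromosome 2, 10120698 to 10131419, plus strand, GENCODE v29) encodes the small subunit of ribonucleotide reductase, which makes deoxyribonucleotides. Its CPM was 198, 212 and 137 in A549 with DMSO and 3.56, 4.29 and 3.53 with RG7112. In H1792 it was 122, 85.2 and 98.5 with DMSO and 212, 206 and 216 with RG7112. The treatments did not overlap in either line, and the 3 treated A549 samples were the lowest of all 12. The log2 fold changes were -5.61 ± 0.23 in A549 (SE, edgeR adjusted p = 1.16e-07) and 1.05 ± 0.17 in H1792 (edgeR adjusted p = 0.00654), and the opposite call held in 12 of 12 leave-one-out fits.

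PEG10 (chromosome 7, 94656325 to 94669695, plus strand), an imprinted gene derived from a retrotransposon, overlaps a gene on the other strand. The strand setting of the counting is not given in the sources used here, so reads of the pair may not have been separated. The same limit holds for AHNAK2, CDK2, DBF4, HNRNPUL1, HSPG2, MRPL49, MSH6, MTHFD2, NCAPD2, NUP98, PBK, RACGAP1, SMC4, SRSF9, TAP1 and TP53I3, and overlap on the same strand for ALDOC, BUB1B, CTSD, MAN2B1, MT-ATP6, MT-CO3 and PLXNB3. PEG10 had CPM of 183, 219 and 91.4 in A549 with DMSO and 37.7, 18.6 and 20.1 with RG7112. In H1792 it had 50.7, 41.1 and 27.9 and 82.4, 124 and 119.9. The lines traded places: A549 was higher with DMSO and H1792 with RG7112, without overlap in either condition. The log2 fold changes were -2.66 ± 0.38 (SE, edgeR adjusted p = 9.06e-04) and 1.44 ± 0.37 (edgeR adjusted p = 0.0201). The H1792 call was lost without replicate 2 or 3 of either H1792 group, where its edgeR adjusted p reached 0.07098.

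NUP153 (chromosome 6, 17615035 to 17706834, minus strand) encodes a nucleoporin of the nuclear basket. Its CPM went from 61.8, 61.1 and 52.1 to 34.1, 30.03 and 27.4 in A549. In H1792 it went from 72.9, 71.8 and 55.4 to 101, 103 and 102. Neither pair of groups overlapped, and the changes were smaller than those of RRM2, at -0.93 ± 0.15 in A549 (SE, edgeR adjusted p = 0.00173) and 0.61 ± 0.14 in H1792 (edgeR adjusted p = 0.0164). The rise in H1792 was not called without replicate 3 of its DMSO group or replicates 2 or 3 of its RG7112 group (edgeR adjusted p up to 0.0587), nor after the GC correction, which left it at 0.24 (edgeR adjusted p = 0.181).

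**Figure D2:**
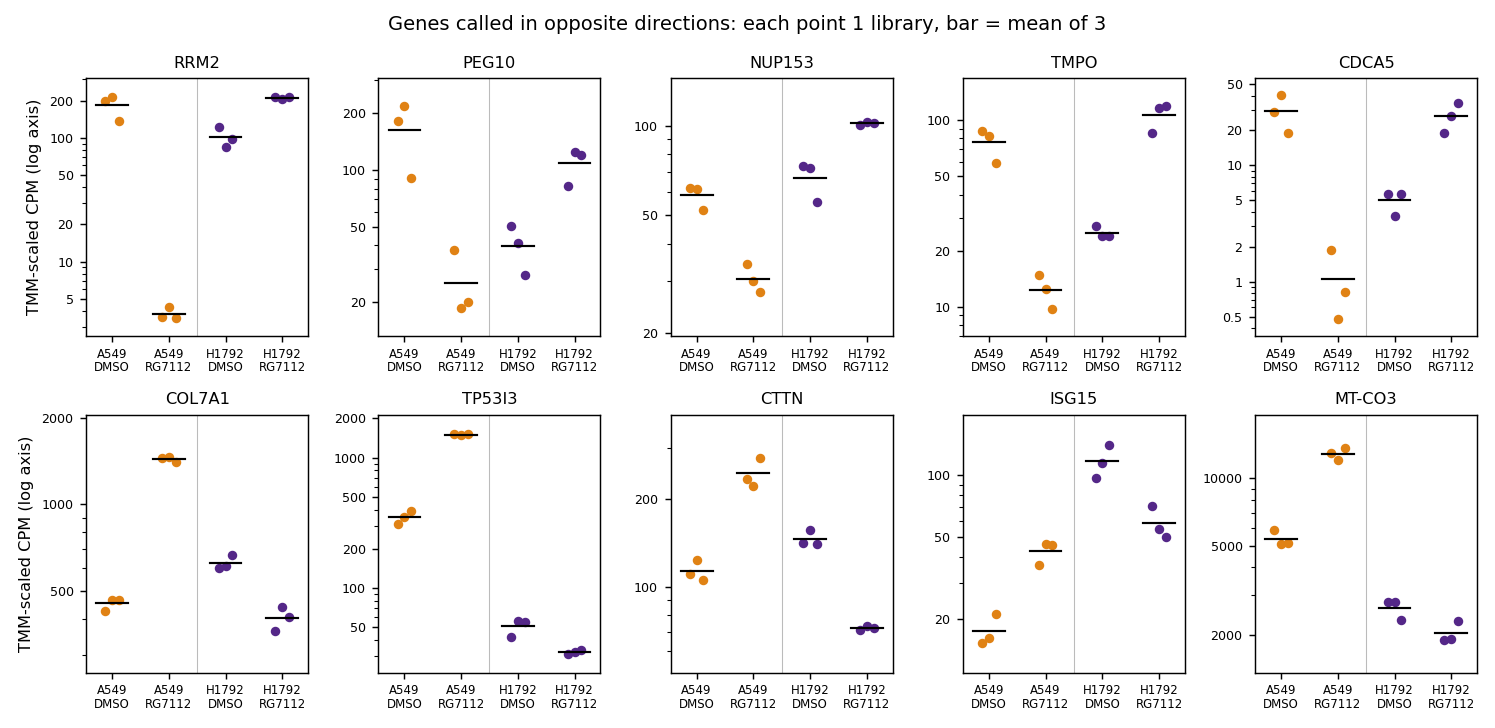
TMM-scaled CPM on a log axis in the 12 samples for 10 genes with opposite calls, with 1 point per library and a bar at the mean of 3. In the upper row, A549 falls and H1792 rises. In the lower row, A549 rises and H1792 falls, as for COL7A1 from a mean of 453 to 1438 CPM in A549 and from 627 to 403 CPM in H1792.

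Genes of mitosis and DNA replication fell as a group in A549, while in H1792 a few rose and a few fell. Of 65 tested mitosis genes, 60 fell and none rose in A549, whereas 9 rose and 6 fell in H1792. The median log2 fold changes were -3.36 and 0.1, beside -0.02 and -0.05 over all genes tested, and that of H1792 turned to -0.17 under the GC correction. All 9 genes that rose in H1792 fell in A549. All 65 tested genes of the list had a negative log2 fold change in A549, so this overlap adds little. Of 62 replication genes, 37 fell in A549, and 4 rose and 7 fell in H1792 (median 0.09, or -0.02 with the GC correction). Among all genes tested, 7.29% fell in A549, and 11.2% rose and 12.5% fell in H1792. The H1792 counts of the mitosis and replication lists thus lay near or under the shares of all genes. PLK1, CDC20 and BIRC5, named after their values were seen, fell in both lines, with log2 fold changes of -2.88 in A549 and -1.39 in H1792, -4.5 in A549 and -0.95 in H1792 and -4.94 in A549 and -0.65 in H1792. The difference between the lines was not called for PLK1 (edgeR adjusted p = 0.06896).

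Among the mitotic genes with opposite calls, CDCA5, which encodes sororin, the protector of sister chromatid cohesion, had CPM of 29.05, 40.1 and 19.2 in A549 with DMSO and 1.86, 0.477 and 0.815 with RG7112. In H1792 it had 5.64, 3.69 and 5.67 and 19.1, 26.7 and 34.5. No treated sample overlapped its controls, which was a condition for naming CDCA5 by the size of its difference. The call held in 12 of 12 leave-one-out fits (log2 fold changes -4.58 in A549 and 2.44 in H1792, edgeR adjusted p = 8.26e-05 and 0.00654). BUB1, a kinase of the spindle checkpoint, changed by -4.49 in A549 and 1.04 in H1792. Its partner BUB1B changed by -4.22 in A549 and 0.81 in H1792, and its rise in H1792 fell short of the call after the GC correction (edgeR adjusted p = 0.231). The condensin subunits NCAPD2 and SMC4, which compact chromosomes, changed by -2.53 in A549 and 1.3 in H1792 and by -2.34 in A549 and 1.19 in H1792. RACGAP1, a component of centralspindlin, changed by -2.89 in A549 and 0.85 in H1792. Further genes with large differences, among those with a mean CPM of at least 10 in a group of each line, were the kinase gene PBK (-4.88 in A549 and 0.75 in H1792), DEPDC1B (-3.61 in A549 and 1.2 in H1792) and ARHGAP11A (-3.51 in A549 and 1.15 in H1792), a RhoA regulator. Leave-one-out fits kept the opposite calls of BUB1, BUB1B, NCAPD2, SMC4, RACGAP1, PBK, DEPDC1B and ARHGAP11A in 9, 8, 8, 10, 11, 2, 6 and 7 of 12 fits. Each library whose absence ended one of these calls was from H1792, except that PBK also lost its call without 4 A549 libraries. The highest edgeR adjusted p in H1792 was 0.156, for PBK.

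By contrast, KIF23 and CCNB1, a mitotic kinesin and cyclin B1, showed a strong fall in A549 and no called change in H1792. KIF23 changed by -3.28 in A549 and 0.29 in H1792 and CCNB1 by -3.28 in A549 and 0.22 in H1792, with edgeR adjusted p of 0.0684 and 0.216 in H1792. MKI67, the proliferation marker, went from 487, 449 and 322 CPM to 20.1, 18.6 and 22.8 in A549 and from 364, 353 and 336 to 286, 367 and 384 in H1792. Its H1792 groups overlapped. Likewise UHRF1, which guides maintenance of DNA methylation, changed by -2.89 in A549 and 0 in H1792. MCM5, a subunit of the replicative helicase, fell in both lines (log2 fold changes -3.27 ± 0.13 and -0.52 ± 0.12, SE).

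In replication and repair, opposite calls were also found for DBF4 (-1.81 in A549 and 1.59 in H1792), the activator of the CDC7 kinase, for RPA2 (-0.8 in A549 and 0.92 in H1792), a subunit of the single-strand binding complex, and for BARD1 (-2.85 in A549 and 1.77 in H1792), the partner of BRCA1. BARD1 was at or under 3 counts in every treated A549 sample, so its fold change in A549 rests on that floor. The 3 calls held in 4, 0 and 2 of 12 leave-one-out fits. RFWD3, a ubiquitin ligase of the replication stress response, rose in H1792 from 17.97, 23.1 and 23.5 to 64.1, 111 and 131 CPM and fell in A549 from 60.3, 64.2 and 32.6 to 21.2, 21.9 and 5.16. The treatments of RFWD3 did not overlap in either line, and its call was lost without replicate 1 or 2 of A549 with DMSO (A549 edgeR adjusted p up to 0.0987). ATAD2, a bromodomain ATPase, changed by -3.11 in A549 and 1.75 in H1792. CDK2 and MSH6, named after their values were seen, changed by -1.51 in A549 and 1.44 in H1792 and by -1.45 in A549 and 1.61 in H1792. BRCA1 and FANCA fell in A549 (-2.82 ± 0.25 and -2.98 ± 0.34, SE) and did not pass the test in H1792 (0.2 ± 0.24 and 0.11 ± 0.28, SE).

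Few nuclear pore and transport genes had opposite calls, though the medians of the list differed in sign. Of 57 tested, 18 fell and none rose in A549, while 19 rose and 8 fell in H1792. The difference was called for 27, each with the lower response in A549. Opposite calls were made for 4 of the 57, beside 0.831% of all genes tested, and for 2 under the GC correction. In H1792, 30 of the 57 had a log2 fold change above 0 and 27 below. The medians were -0.55 and 0.14. They had opposite signs under 22 of 22 alternative settings, all drawn from the same samples, with the H1792 median between 0.05 and 0.49. The list had a median GC content of 46.4%. In the bin of all tested genes with a median GC content of 46.6%, the medians were -0.07 in A549 and 0.18 in H1792. The H1792 median of the list was thus no higher than that of genes of like GC content. NUP155 of the inner ring was at 3.75, 3.58 and 1.25 CPM in A549 with DMSO and at 0.465, 0 and 0 with RG7112. It was at 1.41, 0.231 and 0.436 and 16.3, 28.1 and 32.8 in H1792, where the treated samples stood far above the controls. Its treated A549 samples held 3 counts or fewer, and the fall there was not called without replicate 1 or 2 of DMSO or replicate 2 or 3 of RG7112. NUP160 of the outer ring changed by -0.95 in A549 and 1.2 in H1792 and kept its call in 12 of 12 leave-one-out fits, but not without replicate 3 of both A549 groups (A549 edgeR adjusted p = 0.0618) or with the replicate block (0.0523). NUP98 changed by only -0.49 in A549 and 0.5 in H1792 and kept it in 6. The import receptor KPNB1 and the pore gene NUP58, named after their values were seen, rose in H1792 (0.99 ± 0.23 and 3.29 ± 0.52, SE) without a call in A549 (-0.65 ± 0.23 and -1.0 ± 0.46).

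Of genes for proteins of the inner nuclear membrane, TMPO and LBR are described. TMPO, which encodes the lamina-associated LAP2 proteins, had CPM of 87.8, 82.8 and 59.3 in A549 with DMSO and 14.9, 12.4 and 9.78 with RG7112. In H1792 it had 27.1, 24.003 and 23.98 with DMSO and 85.8, 117 and 119.9 with RG7112. The order of the lines was thus reversed by treatment, and the call held in 12 of 12 leave-one-out fits (log2 fold changes -2.62 ± 0.22 and 2.1 ± 0.21, SE, edgeR adjusted p = 2.01e-05 and 0.00334). LBR, the lamin B receptor, named after its values were seen, changed by -1.72 in A549 and 1.85 in H1792.

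Splicing factor genes fell in A549 with less movement in H1792, whereas ribosome biogenesis genes were called in both lines. Of 42 ribosome biogenesis genes tested, 12 fell and 1 rose in A549, and 7 fell and 5 rose in H1792. Their medians were -0.58 in A549 and -0.29 in H1792. Of 44 splicing factors tested, 23 fell and 1 rose in A549, and 8 rose and 3 fell in H1792. The medians were -0.63 and 0.04, and that of H1792 was -0.24 after the GC correction. SF3A3 of the U2 snRNP changed by -0.57 in A549 and 1.39 in H1792, HNRNPK by -0.5 in A549 and 0.43 in H1792 (-0.26 and -0.04 after the GC correction, without a rise in H1792), HNRNPUL1 by -0.53 in A549 and 0.44 in H1792 and the splicing repressor PTBP1 by -0.65 in A549 and 0.24 in H1792. The opposite calls of SF3A3, HNRNPK, HNRNPUL1 and PTBP1 were kept in 2, 8, 4 and 5 of 12 leave-one-out fits. SRSF9 had the reverse direction, at 1.68 in A549 and -2.25 in H1792, and its call held in 3 of 12 fits. TRA2B and SRSF2 fell in A549 and were not called in H1792 (-1.24 in A549 and 0.24 in H1792 and -1.05 in A549 and 0.23 in H1792), with edgeR adjusted p of 0.112 and 0.0866 in H1792. NOLC1, a nucleolar phosphoprotein, changed by -1.26 in A549 and 0.53 in H1792, and NPM1 by -1.02 in A549 and 0.15 in H1792, with its difference no longer called after the GC correction. MYC, named after its values were seen, went from 77.2, 98.3 and 74.97 to 37.04, 28.1 and 35.04 CPM in A549 and from 558, 458 and 463 to 659, 802 and 724 in H1792, without overlap in either line.

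Metabolic genes with this direction included MTHFD2, the mitochondrial enzyme of one-carbon metabolism. Its CPM fell from 43.1, 46.1 and 42.1 to 21.9, 22.9 and 11.1 in A549 and rose from 90.9, 83.3 and 97.7 to 188, 192 and 197 in H1792. GCLC, the catalytic subunit of glutamate-cysteine ligase for glutathione synthesis, went from 255, 226 and 186 to 117, 117 and 69.8 CPM in A549 and from 90.2, 68.8 and 82.4 to 144, 168 and 177 in H1792. The treatments overlapped for neither gene in either line, and both calls held in all 12 leave-one-out fits. IARS1, an isoleucyl-tRNA synthetase, changed by -1.15 in A549 and 1.98 in H1792, and ERO1A, an oxidase of the endoplasmic reticulum, by -1.09 in A549 and 1.64 in H1792. IARS1 and ERO1A kept their calls in 6 and 7 of 12 fits. SLC3A2 and SLC1A5, amino acid transporter genes, fell in A549 (-1.68 ± 0.09 and -1.37 ± 0.1, SE) and were not called in H1792 (-0.08 ± 0.09 and -0.19 ± 0.09).

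In the reverse direction, the p53 targets TP53I3 and BBC3 rose in A549 and fell in H1792. TP53I3, a quinone oxidoreductase gene, had CPM of 312, 354 and 393 in A549 with DMSO and 1508, 1487 and 1515 with RG7112. In H1792 the values were 41.9, 55.9 and 55.4 and 31.5, 32.6 and 33.3. The treatments did not overlap in either line (log2 fold changes 2.09 ± 0.12 and -0.65 ± 0.13, SE, edgeR adjusted p = 1.14e-06 and 0.00901). The fall in H1792 was -0.31 on library size alone (edgeR adjusted p = 0.0627). BBC3, which encodes the proapoptotic PUMA, changed by 1.76 in A549 and -0.85 in H1792, and its fall in H1792 was not called after the GC correction (edgeR adjusted p = 0.288). Of 35 p53 targets tested, 14 rose and none fell in A549. In H1792, 5 rose and 5 fell, beside 11.2% and 12.5% of all genes tested. The p53 target DGKA rose in A549 (2.19 ± 0.23, SE) and did not pass the test in H1792 (-0.17 ± 0.25).

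Some genes of the extracellular matrix and mesenchymal state rose in A549, and in H1792 about as many rose as fell. Of 66 genes on the EMT list, 17 rose and 2 fell in A549, while 13 rose and 15 fell in H1792, and 6 had opposite calls. The medians were 0.4 and -0.13, the latter at 0.20 on library size alone and 0.02 after the GC correction. COL7A1 (chromosome 3, 48564073 to 48595267, minus strand), the collagen of anchoring fibrils, had CPM of 426, 467 and 465 and 1453, 1458 and 1402 in A549 and of 602, 612 and 668 and 364, 440.3 and 405 in H1792, with DMSO and RG7112 respectively. No groups overlapped, and the line with the higher level changed from H1792 to A549. The log2 fold changes of COL7A1 were 1.67 ± 0.09 and -0.64 ± 0.09 (SE, edgeR adjusted p = 9.68e-07 and 0.00614). The H1792 value was -0.23 after the GC correction and -0.3 on library size alone (edgeR adjusted p = 0.233 and 0.0649).

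MMP2, a gelatinase gene, moved from 14.7, 15.4 and 18.9 to 28.4, 43.9 and 51.9 CPM in A549 and from 1208, 1463 and 1243 to 631, 822 and 735 in H1792. It stayed far higher in H1792 than in A549. COL16A1 moved from 15.3, 12.3 and 19.9 to 31.8, 39.1 and 32.1 CPM in A549 and from 21.1, 22.6 and 25.7 to 10.1, 10.7 and 8.38 in H1792, and it kept its call in 12 of 12 leave-one-out fits and in 7 of 7 alternatives of model, scaling, GC content and samples. Of the other matrix genes, the collagen VI genes COL6A1 and COL6A2 changed by 1.27 in A549 and -1.3 in H1792 and by 0.89 in A549 and -0.59 in H1792. HSPG2, the perlecan gene, changed by 2.09 in A549 and -2.0 in H1792, and the surface proteoglycan gene SDC4 by 0.57 in A549 and -0.46 in H1792. The calls of MMP2, COL6A1, COL6A2, HSPG2 and SDC4 held in 10, 6, 6, 5 and 5 of 12 leave-one-out fits. LAMB2, a laminin gene named after its values were seen, changed by 1.24 in A549 and -1.3 in H1792. FN1, the fibronectin gene, also named afterwards, rose in both lines, at 0.82 ± 0.24 and 0.95 ± 0.24 (SE).

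Among cytoskeletal and adhesion genes, CTTN, which encodes the actin-binding cortactin, had an opposite call of nearly equal size in both lines. It had 111, 123 and 105 CPM in A549 with DMSO and 235, 223 and 278 with RG7112. In H1792 it had 141, 156 and 140.4 and 71.04, 73.1 and 72.4. The groups did not overlap, the log2 fold changes were 1.11 ± 0.11 and -1.02 ± 0.11 (SE, edgeR adjusted p = 7.65e-05 and 0.00334), and the call held in 12 of 12 leave-one-out fits. AHNAK2, a large scaffold protein gene, changed by 1.76 in A549 and -1.45 in H1792 and held in 12. TPM3, a tropomyosin gene, had the other direction (-0.77 in A549 and 0.83 in H1792), but its A549 groups overlapped and the call held in 1 of 12 fits. Over the actin and focal adhesion list no direction prevailed: of 54 genes, 3 rose and 1 fell in A549, and 12 rose and 12 fell in H1792. ACTA2, smooth muscle actin, rose in A549 (2.07 ± 0.13, SE) without a called change in H1792 (-0.3 ± 0.13).

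Genes with the largest difference in this direction were otherwise of mixed function. PLXNB3, a semaphorin receptor gene, rose from 2.81, 5.97 and 3.49 to 172, 161 and 104 CPM in A549 and fell from 10.9, 10.6 and 14.4 to 2.58, 6.94 and 3.26 in H1792, and it overlaps another gene on its own strand. DHX29, a helicase of translation initiation, had 1.56, 2.901 and 0 and 15.7, 19.5 and 7.61 CPM in A549 with DMSO and RG7112. In H1792 it went from 20.1, 17.8 and 13.1 to 0, 0.356 and 0, so its fall there rests on 3 counts or fewer. C1QTNF1, a secreted protein gene, changed by 1.93 in A549 and -0.63 in H1792. MRPL49, a mitochondrial ribosomal protein gene, changed by 2.09 in A549 and -1.73 in H1792 but its treatments overlapped in H1792 and the call was kept in 3 of 12 leave-one-out fits.

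A minority of lysosomal genes passed the test, more often upward in A549 and downward in H1792. Of 54 lysosome and autophagy genes, 10 rose and 1 fell in A549, beside 6.05% and 7.29% of all genes tested. In H1792, 4 rose and 11 fell, beside 11.2% and 12.5% of all genes. The difference was called for 14, each higher in A549, and the medians were 0.4 and -0.12, the latter 0.21 on library size alone, where 6 differences were higher and 2 lower in A549. ATG2A, a lipid transfer protein of autophagosome growth, changed by 1.24 in A549 and -1.4 in H1792. Changes were 1.14 in A549 and -0.41 in H1792 for the glucosidase gene GAA (0.0973 in H1792 after the GC correction), 1.33 in A549 and -1.51 in H1792 for the sulfatase gene ARSA and 0.98 in A549 and -0.96 in H1792 for the protease gene CTSD. SMPD1 and MAN2B1, which encode acid sphingomyelinase and lysosomal mannosidase, changed by 1.4 in A549 and -2.05 in H1792 and by 1.98 in A549 and -1.48 in H1792. Calls of ATG2A, GAA, ARSA, CTSD, SMPD1 and MAN2B1 held in 11, 8, 4, 2, 6 and 6 of 12 leave-one-out fits.

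Interferon response genes had medians of opposite sign, 0.68 in A549 and -0.56 in H1792, over 24 tested genes. The signs were opposite under 22 of 22 alternative settings, all drawn from the same samples, with the H1792 median between -0.63 and -0.22. Opposite calls were made for 3 genes and for 4 with DESeq2. They were made for 1 on library size alone and 0 with the GC correction and the replicate block together. In A549, 6 rose and none fell, and in H1792, 6 fell and 1 rose. ISG15, a ubiquitin-like modifier, went from 15.3, 16.04 and 21.2 to 36.7, 46.2 and 45.9 CPM in A549 and from 97.6, 115 and 140.4 to 70.5, 54.6 and 50.05 in H1792. The groups did not overlap, and the call held in 12 of 12 leave-one-out fits (log2 fold changes 1.29 in A549 and -1.01 in H1792, edgeR adjusted p = 0.00175 and 0.00906). TAP1, the peptide transporter of antigen presentation, changed by 1.32 in A549 and -0.76 in H1792, and STAT2, a transcription factor of the interferon pathway, by 0.91 in A549 and -0.86 in H1792. TAP1 and STAT2 kept their calls in 8 and 7 fits. The gene that rose in H1792 was IFIH1, a sensor of double-stranded RNA (4.27 ± 0.88, SE). Its H1792 controls held 3 counts or fewer, and it was named after its value was seen.

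Transcripts encoded by mitochondrial DNA rose in A549 almost without exception. Of 13 tested, 12 rose in A549 and 1 was not called, and in H1792, 4 fell and 1 rose. MT-CO3, a subunit of cytochrome c oxidase, had CPM of 5876, 5089 and 5159 in A549 with DMSO and 12921, 12013 and 13674 with RG7112. In H1792 it had 2804, 2803 and 2320.3 and 1897, 1913 and 2309, where the lowest control and the highest treated sample differed little. Opposite calls were made for MT-CO3 (1.26 in A549 and -0.37 in H1792), MT-CO2 (1.32 in A549 and -0.9 in H1792), MT-ATP6 (1.46 in A549 and -0.78 in H1792) and MT-ND6 (1.65 in A549 and -0.67 in H1792). None of the 4 falls in H1792 was called on library size alone, and the list's H1792 median went from -0.19 to 0.15 there, while it was -0.43 after the GC correction. MT-CO3, MT-CO2, MT-ATP6 and MT-ND6 kept their calls in 4, 7, 5 and 9 of 12 leave-one-out fits. MT-ND1 rose in A549 (1.73 ± 0.14, SE) and was not called in H1792 (-0.19 ± 0.14).

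Of 8 epithelial markers tested, 1 rose and none fell in A549, and 4 fell and none rose in H1792. The medians were 0.29 and -0.64, opposite in sign under 22 of 22 settings, all drawn from the same samples. KRT7, KRT8 and KRT18, the last named after its values were seen, fell in H1792 without overlap (-0.87 ± 0.21, -0.62 ± 0.14 and -1.12 ± 0.26, SE) and were not called in A549 (0.34 ± 0.2, 0.16 ± 0.14 and -0.07 ± 0.26). The part of these keratin changes in the changes of the EMT list was not tested. KRT19, a keratin of simple epithelia, moved from 1059.5, 1209.8 and 1418 to 2636, 2759.7 and 3468 CPM in A549 and from 51.1, 59.1 and 54.5 to 42.9, 30.8 and 30.5 in H1792. The opposite call held in 8 of 12 leave-one-out fits. ALDOC, an aldolase gene, changed by 1.07 in A549 and -0.73 in H1792 and held in 12, and AKR1B1, an aldo-keto reductase gene, changed by 0.94 in A549 and -0.7 in H1792 and held in 10. NUPR1, a stress-induced chromatin protein gene, changed by 1.36 in A549 and -0.69 in H1792 and held in 4, and WFS1, of the endoplasmic reticulum, changed by 0.4 in A549 and -0.4 in H1792 and held in 1. FASN and PFKL, the fatty acid synthase and liver phosphofructokinase genes, fell in H1792 (-1.09 ± 0.19 and -1.81 ± 0.2, SE) without a called change in A549 (0.2 ± 0.18 and 0.57 ± 0.2).

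**Figure D3:**
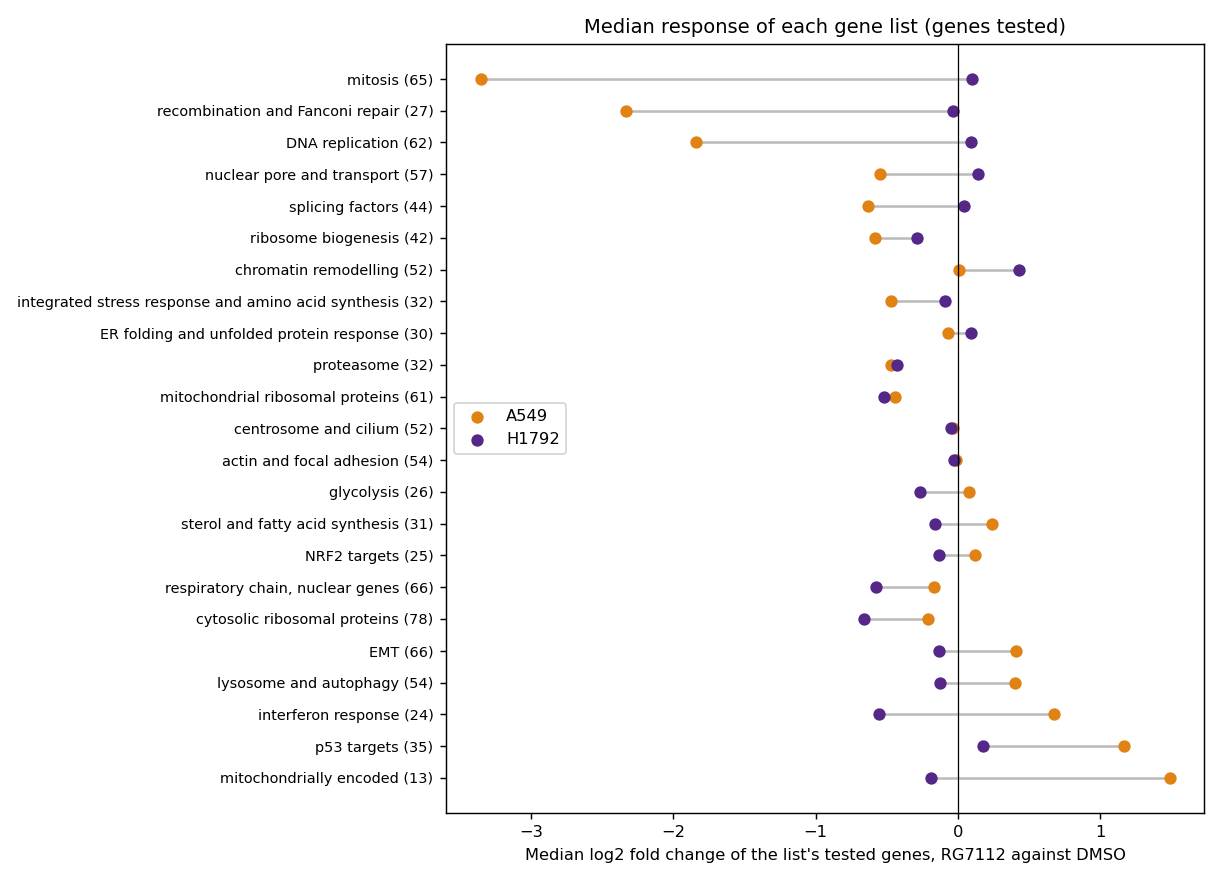
Median log2 fold change of RG7112 against DMSO for the tested genes of 23 lists in A549 and H1792, with the number of genes in parentheses. Mitosis, replication and repair lie far to the left in A549 and near 0 in H1792, interferon response genes lie on either side of 0, and proteasome and mitochondrial ribosomal protein genes lie below 0 in both lines.

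Not every function moved apart. Cytosolic ribosomal protein genes had medians below 0 in both lines: of 78 tested, 7 fell in A549 and 58 in H1792, none rose in either, and the medians were -0.21 and -0.66. The difference was called for 17, each with the higher response in A549, but on library size alone 5 were higher and 5 lower and the median difference went from 0.43 to 0.04. RPL28 and RPS19 had differences of that kind (0.25 in A549 and -1.04 in H1792 and 0.32 in A549 and -0.81 in H1792). Proteasome genes had nearly equal medians (-0.47 and -0.43), with 7 of 32 down in A549 and 12 in H1792. Of 66 nuclear genes of the respiratory chain, 27 fell in H1792 and 6 in A549, and the difference was higher in A549 for 10 and lower for 3. On library size alone it was higher for 3 and lower for 11, with medians of -0.22 in A549 and -0.25 in H1792. Lists of ribosome biogenesis, stress response, sterol synthesis, glycolysis, NRF2 targets, chromatin remodelling, centrosome and mitochondrial ribosome genes each held 0 to 3 opposite calls.

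The genes with opposite calls differed in base composition. The GC content of the transcripts (GENCODE v29) had a median of 43.4% among the 96 genes down in A549 and up in H1792 that had a value, 59.6% among 125 in the reverse direction and 50.6% among 10745 tested genes. Across the latter, GC content correlated with the response of A549 (Spearman's rho = 0.233) and, in the other direction, with that of H1792 (rho = -0.412), and these are descriptions across genes, which are not replicates. In the lowest of 10 bins of GC content the median responses were -0.28 in A549 and 0.53 in H1792, and in the highest bin they were 0.21 and -0.55. When each sample was corrected for GC content by a loess curve, 69 and 78 genes had opposite calls, of which 40 and 53 were among the original 97 and 132. Of the genes named here that fell in A549 and rose in H1792, ARHGAP11A, BARD1, BUB1B, DBF4, DEPDC1B, ERO1A, HNRNPK, NOLC1, NUP153, NUP98, PBK, SF3A3, SMC4 and TPM3 lost the opposite call under this correction. In the reverse direction ARSA, BBC3, C1QTNF1, COL6A2, COL7A1, CTSD, GAA, KRT19, LAMB2, MAN2B1, MRPL49, NUPR1, PLXNB3, SMPD1 and WFS1 lost it. The other named genes with opposite calls kept theirs, among them RRM2, PEG10, TMPO, CDCA5, CTTN, TP53I3 and ISG15. The H1792 response turned sign for HNRNPK and GAA. The part of base composition in the opposite calls was not tested beyond this correction. GC content lay under the median of all tested genes for 83 of the 96 genes down in A549 and up in H1792 and over it for 113 of the 125 in the reverse direction. Among the 13 and 12 exceptions were CDCA5, MYC, PTBP1 and HNRNPUL1, and MT-CO3, MT-CO2, MT-ATP6 and MT-ND6.

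**Figure D4:**
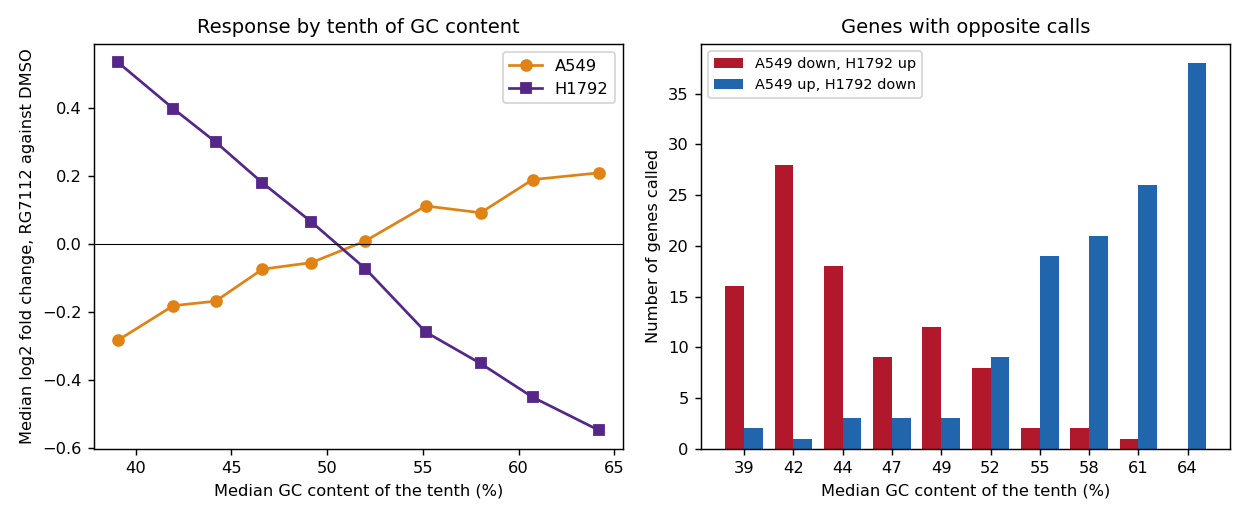
Left, median log2 fold change of RG7112 against DMSO in A549 and H1792 by 10 bins of transcript GC content. Right, the number of genes with opposite calls in each bin, where genes down in A549 and up in H1792 number 16, 28 and 18 in the 3 lowest bins and those of the reverse direction 21, 26 and 38 in the 3 highest.

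Treatment also changed which line had the higher mean CPM, for 3472 of all 11666 genes tested. The order changed for 68 of the 97 and 53 of the 132 genes with opposite calls. Over all genes tested, A549 was higher in 6176 with DMSO and in 5832 with RG7112. Of the 97 genes down in A549 and up in H1792, A549 had the higher mean CPM in 70 with DMSO and in 2 with RG7112. Of the 132 genes of the reverse direction, A549 was higher in 66 with DMSO and in 119 with RG7112. These orders follow in part from the choice of the genes and carry no test. Replicate 3 of A549 with DMSO stood apart from replicates 1 and 2 in the same genes, which were higher in the latter for 75 of 97 genes down in A549 and for 30 of 132 up in A549 (47.8% of all tested genes). Without replicate 3 of both A549 groups the counts were 130 and 168, and 69 and 93 of the genes were the same.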

How the data were processed

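RNA was sequenced from 12 samples, 3 for each combination of A549 or H1792 with DMSO or RG7112. The authors pseudoaligned reads with kallisto 0.45.0 to an Ensembl GRCh38 transcriptome and summed transcripts to genes. The deposited values are expected counts (estimated counts) given as whole numbers, used as they are. Labels and methods differ on sequencer, read length and the medium of A549, and the strand setting of the counting is not given in the sources used here. The authors tested each line with DESeq2.

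Genes with at least 10 counts in enough samples (filterByExpr, total of 15) were kept, which left 11666 of 20595. All 12 samples entered a single quasi-likelihood fit of 4 group means in edgeR 4.0.16 (R 4.3.3) with TMM scaling. The A549 response, the H1792 response and their difference were tested, two-sided, with Benjamini-Hochberg adjustment over all tested genes. CPM are TMM-scaled. Errors of log2 fold changes are approximate standard errors, taken as the absolute log2 fold change divided by the square root of the quasi-likelihood F statistic. Replicate pairs of a group differed by more than counting noise, so each library counted as 1 sample. Replicate 3 stood apart in both A549 groups. Chi-squared per degree of freedom was 5.93 for DMSO replicates 1 and 2, and 18.2 and 19.9 for pairs with replicate 3. With RG7112 it was 5.38, and 25.6 and 17.2. An effect shared by both A549 replicates 3 was not tested beyond the replicate block and their omission. Same-numbered samples did not deviate together in every pair (r = 0.115, 0.061 and 0.273 in A549 and -0.024, -0.002 and 0.003 in H1792), so numbers were not used as pairs. Positions and GC content came from GENCODE v29 (GRCh38), and 10752 tested genes matched. Promoters came from RefSeq. Scripts were tested on simulated data.

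Named genes were RRM2, PEG10 and NUP153, the check genes CDKN1A, MDM2 and GDF15, the 12 genes with the largest difference in each direction among opposite calls with CPM of at least 10 and no overlap, and for each list the 3 members with the smallest p of the difference and up to 5 with opposite calls. Some genes outside the rule are marked as named after their values were seen. The members and lists were chosen with earlier results of these data known. Alternatives covered DESeq2 1.42.0, limma 3.58.1, scaling, filters, GC content (loess), a replicate term, thresholds, separate fits per line and leaving out libraries. Lists were described by counts and medians, and no set test was run.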

Additional observations from a re-analysis of the deposited data

Results flagged for a closer look

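Results are given here because the difference between the responses of the lines passed the edgeR test of the interaction. This difference was called for 1210 genes with the higher response in A549 and for 1329 with the lower response in A549. Every value below is a log2 response of A549 minus that of H1792.

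Among genes of p53 targets and drug response, the difference was 3.4 for CDKN1A, 3.12 for MDM2, 0.91 for GDF15, 2.74 for TP53I3, 2.61 for BBC3 and 2.36 for DGKA.

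Among genes of DNA replication and repair, the difference was -6.66 for RRM2, -3.4 for DBF4, -1.72 for RPA2, -2.75 for MCM5, -2.89 for UHRF1, -4.62 for BARD1, -3.03 for BRCA1, -3.09 for FANCA, -3.95 for RFWD3, -2.95 for CDK2, -3.05 for MSH6 and -4.87 for ATAD2.

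Among genes of mitosis, the difference was -7.01 for CDCA5, -5.54 for BUB1, -5.03 for BUB1B, -3.83 for NCAPD2, -3.53 for SMC4, -3.74 for RACGAP1, -5.63 for PBK, -4.81 for DEPDC1B, -4.66 for ARHGAP11A, -3.57 for KIF23, -3.49 for CCNB1, -4.32 for MKI67, -3.55 for CDC20 and -4.29 for BIRC5.

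Among genes of the nuclear pore and envelope, the difference was -1.54 for NUP153, -8.71 for NUP155, -2.15 for NUP160, -0.998 for NUP98, -4.29 for NUP58, -1.65 for KPNB1, -4.72 for TMPO and -3.57 for LBR.

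Among genes of RNA processing, the nucleolus and the ribosome, the difference was -1.95 for SF3A3, -0.93 for HNRNPK, -0.97 for HNRNPUL1, -0.89 for PTBP1, 3.93 for SRSF9, -1.29 for SRSF2, -1.49 for TRA2B, -1.78 for NOLC1, -1.17 for NPM1, 1.29 for RPL28, 1.13 for RPS19, 3.82 for MRPL49 and 9.79 for DHX29.

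Among genes of matrix and adhesion, the difference was 2.3 for COL7A1, 2.36 for COL16A1, 2.56 for COL6A1, 1.47 for COL6A2, 2.16 for MMP2, 4.1 for HSPG2, 1.03 for SDC4, 2.54 for LAMB2, 2.13 for CTTN, -1.6 for TPM3, 3.21 for AHNAK2, 2.37 for ACTA2 and 1.93 for KRT19.

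Among genes of the lysosome and interferon response, the difference was 2.65 for ATG2A, 1.55 for GAA, 2.84 for ARSA, 1.94 for CTSD, 3.46 for SMPD1, 3.46 for MAN2B1, 2.3 for ISG15, 2.08 for TAP1, 1.77 for STAT2 and -3.57 for IFIH1.

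Among genes of mitochondrial transcripts, the difference was 1.63 for MT-CO3, 2.22 for MT-CO2, 2.24 for MT-ATP6, 2.32 for MT-ND6 and 1.92 for MT-ND1.

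Among genes of metabolism, stress and other functions, the difference was -2.16 for GCLC, -2.33 for MTHFD2, 1.65 for AKR1B1, -1.18 for SLC1A5, 1.81 for ALDOC, 0.799 for WFS1, 1.21 for KRT7, -1.87 for MYC, 2.38 for PFKL, -1.6 for SLC3A2, 1.3 for FASN, 0.77 for KRT8, 2.56 for C1QTNF1, 2.05 for NUPR1, -3.14 for IARS1, -2.73 for ERO1A, 6.54 for PLXNB3 and -4.1 for PEG10.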

How the results depend on the processing

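The difference between the lines of no gene of the naming rule changed sign under the alternatives, but responses within a line, list medians and counts of calls did. Under the GC correction 92 of 96 and 122 of 125 opposite genes still had opposite signs. The median difference of a list turned sign on library size alone for actin (0.21 to -0.22), glycolysis (0.29 to -0.15), NRF2 targets (0.30 to -0.0930), sterol synthesis (0.29 to -0.0931), centrosome (0.0801 to -0.32) and mitochondrial ribosome genes (0.0477 to -0.36). It also did so with the GC correction for the unfolded protein (-0.20 to 0.0294) and stress response lists (-0.25 to 0.0079), and for the proteasome, where it was -0.0143, under DESeq2, RLE factors, the GC correction and without both A549 replicates 3. Without those, actin and NRF2 targets turned too, and centrosome under limma. The interaction calls over all genes (2539) were 1601 with the GC correction and the replicate block together and 848 at an adjusted p under 0.01, and 1584 to 2978 in fits without 1 library. Calls higher in A549 (1210) were 645 on library size alone and 388 at that stricter threshold, and 689 to 1470 without 1 library. Calls lower in A549 (1329) were 2157 on library size alone, 864 with the GC correction, 780 with the GC correction and the block, 460 at the stricter threshold and 895 to 1508 without 1 library.

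The 97 genes down in A549 and up in H1792 became 211 on library size alone, 64 with the GC correction and the block, 11 at the stricter threshold, 40 at a log2 fold change over 1, 64 with a separate fit for each line and 23 to 116 without 1 library. The 132 genes in the reverse direction became 241 with DESeq2, 46 on library size alone, 62 without a filter on low counts, 78 with the GC correction, 81 with the GC correction and the block, 17 at the stricter threshold, 28 at a log2 fold change over 1, 58 with separate fits and 36 to 165 without 1 library. Together (229) they were 380 with DESeq2, 148 without the filter, 147 with the GC correction, 145 with the block added, 28 at the stricter threshold, 68 at a log2 fold change over 1, 122 with separate fits and 61 to 281 without 1 library. The cause of these shifts was not tested, except that separate fits and left-out libraries have fewer samples.

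With the replicate block alone, 2357 interactions and 86 and 147 opposite genes were called, and not every sample resembled its own number most. Of the original 97 and 132 genes, the block kept 62 and 99 in their class, and separate fits kept 38 and 57. In all 7 of the alternatives of model, scaling, GC content and samples, 25 and 18 kept it. The difference of the named genes was called for 113 of them, and for 98 to 114 under the alternatives. Medians of opposite sign were found for 14 lists, and for 12 to 18 under the alternatives, while 23 of 25 list results moved by more than the spread on library size alone. Keeping 1 gene of each set with identical counts, chosen after seeing the data, left 2475 interactions and 93 and 127 opposite genes. Depth limits genes at or under 3 counts, among them BARD1, DHX29, IFIH1 and NUP155, whose fitted fold changes depend on the prior count.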
